A study of Mus musculus with 18 samples.

Results

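Transcripts of 10 genes of the neuropeptide pathway were followed through primary mouse brain cell cultures and the small extracellular vesicles (sEVs) these cultures shed. The genes were taken by symbol from the deposited table of 54307 genes, and all 10 were present. They are the peptide precursors Npy, Sst, Tac1, Vip and Penk, the granin-family genes Chga, Chgb, Scg2 and Vgf, and the prohormone convertase Pcsk1. Poly(A) RNA was sequenced from sEVs of neurons, astrocytes and microglia and from the neuron, astrocyte and microglia cells, with 3 libraries in each of the 6 groups. The design asks which mRNAs each cell type sends into its sEVs. The labels call all material primary brain cell culture from Mus musculus and name no strain, age, genotype or treatment for any group. They number the replicates without saying whether these were separate cultures, so p-values measure only the spread between these libraries.

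Neuropeptides are made as larger precursor proteins that enter the secretory pathway and are packed with granins into dense-core vesicles. Convertases cut the precursors there, carboxypeptidases and an amidating enzyme trim the products, and the mature peptides leave the cell when calcium rises. In the cortex, Npy, Sst and Vip are known as products of inhibitory interneurons. The mRNA itself encodes this cargo and is not part of a dense-core vesicle. The values below are normalized counts, that is, estimated read counts that the authors scaled for differences in depth between libraries.

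The deposited values summed to 36947428 to 69276566 per library. Between 7840 and 15951 genes reached a value of 10 in a sEV library, against 13494 to 18131 genes in a cell library. The 12 neuron markers checked were all above 0 in each neuron sEV and neuron cell library. In astrocyte cells all 12 were also above 0, with sums of 18640 to 24990, against 274500 to 342400 in neuron cells. In microglia sEVs 2 to 9 of the 12 were above 0, summing to 1743 to 6259, against 5 to 7 markers and sums of 906 to 1518 in microglia cells. Of 12 excitatory neuron markers, 2 to 6 were above 0 in an astrocyte sEV library, with sums of 329 to 838, against 6 in each astrocyte cell library, with sums of 310.8 to 435.3. In microglia sEVs 0 to 3 of these 12 were above 0, summing to at most 318, against 2 in each microglia cell library, with sums of 50.7 to 184. The defining excitatory gene Slc17a7 was at 0 in every astrocyte library and every microglia cell library, and the inhibitory gene Gad1 had 419, 373 and 185 in astrocyte cells. All 10 oligodendrocyte lineage markers were above 0 in every astrocyte and neuron cell library, summing to 269600 to 480600 in astrocyte cells and 36890 to 108400 in neuron cells. The 12 astrocyte markers checked summed to 119000 to 169500 in neuron sEVs and 147200 to 157900 in neuron cells. In the same neuron sEV libraries the neuron markers summed to 135500 to 172100. How much neurons, astrocytes or oligodendrocyte lineage cells add to the values of the other cultures was not tested. Fewer cells of a type and less RNA per cell cannot be told apart in such bulk samples.

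Several of these genes are textbook targets of CREB, which binds the cyclic AMP response element TGACGTCA, so the 300 bases around their start sites are shown before the values. RefSeq start-site windows (GRCm38.p6, 250 bases before to 50 after the start) were held for 8 of the 10 genes. The full element, which reads the same on both strands, lay in 4 of the 8, against 588 of 32851 windows of the same length over all genes, or 1.79%. The core TGACG, searched on both strands and contained in the full element, lay in 7 of the 8, all but Npy, against 20.8% of all windows. The windows with the full element are those of Sst (chr16:23890795-23891094, reverse strand), Chgb (chr2:132781392-132781691, forward strand), Scg2 (chr1:79439977-79440276, reverse strand) and Pcsk1 (chr13:75089607-75089906, forward strand). They are printed from 5′ to 3′ on the gene's strand, with each full or core element in capitals:
Sst: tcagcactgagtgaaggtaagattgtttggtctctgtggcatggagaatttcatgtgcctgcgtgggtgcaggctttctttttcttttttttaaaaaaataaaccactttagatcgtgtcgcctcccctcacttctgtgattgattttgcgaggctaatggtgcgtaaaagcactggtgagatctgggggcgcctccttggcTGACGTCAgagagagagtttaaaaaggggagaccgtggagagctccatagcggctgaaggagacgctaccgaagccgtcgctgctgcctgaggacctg
Chgb: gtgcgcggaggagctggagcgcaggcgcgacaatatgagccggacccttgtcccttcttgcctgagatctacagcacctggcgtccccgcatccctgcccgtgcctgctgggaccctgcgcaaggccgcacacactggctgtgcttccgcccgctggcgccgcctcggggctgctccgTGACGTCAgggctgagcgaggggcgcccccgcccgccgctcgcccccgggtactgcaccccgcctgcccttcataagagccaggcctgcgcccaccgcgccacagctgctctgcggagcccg
Scg2: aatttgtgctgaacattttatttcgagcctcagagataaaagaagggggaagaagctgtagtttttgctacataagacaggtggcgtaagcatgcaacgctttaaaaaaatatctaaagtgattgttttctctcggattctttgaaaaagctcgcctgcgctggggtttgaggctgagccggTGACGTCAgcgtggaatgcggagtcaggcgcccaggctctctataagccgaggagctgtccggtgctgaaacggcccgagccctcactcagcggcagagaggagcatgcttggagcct
Pcsk1: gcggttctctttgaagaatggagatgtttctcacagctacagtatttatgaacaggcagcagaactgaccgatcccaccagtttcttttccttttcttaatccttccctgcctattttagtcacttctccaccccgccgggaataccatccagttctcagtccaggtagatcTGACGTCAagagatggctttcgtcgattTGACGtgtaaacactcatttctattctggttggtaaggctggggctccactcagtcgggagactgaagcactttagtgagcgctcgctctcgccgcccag
Counted from the start site, the first base of the full element stood at -48 in Sst, -72 in Chgb, -68 in Scg2 and -78 in Pcsk1. These matches describe the sequence and were not tested for binding.

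In neurons, transcripts of this pathway were lower in sEVs than in cells, and the size of the gap differed widely from gene to gene. Of the 10 genes, 7 were lower in neuron sEVs at an adjusted p under 0.05 (limma, Benjamini-Hochberg over 19612 genes), and 0 were higher. The 7 include Vip, which was above 0 in neuron cells alone and so could only be called lower. They also include Tac1, which reached 10 outside neuron cells only in neuron sEVs, at 21.7 and 67.9. Tac1 therefore passed the filter only with the help of neuron cells, where it was high. Across all genes tested, 18.9% were lower and 11.1% higher. With quantile normalization of the libraries 3615 genes were higher and 3439 lower, against 2185 and 3705, and 0 and 9 of the 10. For 9 of the 10, every neuron sEV library lay below every neuron cell library, an order that 34.2% of all genes showed. The median difference of the 10 on the scale of log2(normalized count + 1) was -5.21, against -0.47 for all genes. Together the 10 genes made up 0.00757 ± 0.00148% of the summed values in neuron sEVs and 0.132 ± 0.0195% in neuron cells (SD, n = 3 each).

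Among the peptide precursors of the 10 genes, the interneuron peptides Npy and Sst were the ones most clearly present in neuron sEVs. Npy (ENSMUSG00000029819.7), which encodes neuropeptide Y, had 891, 338 and 824 normalized counts in the neuron sEV libraries, against 5540, 3673 and 6004 in the neuron cell libraries. The groups did not overlap, and the difference was -2.98 ± 0.55 (log2 ± SE; limma adjusted p = 0.000703). Sst (ENSMUSG00000004366.5), which encodes somatostatin, had 477, 149 and 382 in neuron sEVs, against 4791, 2446 and 4735 in neuron cells. For both genes replicate 2 was the lowest library of its group in sEVs and in cells. The sEV mean of Sst was 8.43% of the cell mean, yet its difference of -3.66 ± 1.87 missed the threshold (limma adjusted p = 0.166) in the fit that shares one estimate of spread over all 18 libraries. That spread includes a lone astrocyte sEV library with 151 and a lone microglia sEV library with 100.7, while the other sEV libraries of both types were listed at 0. With only the 6 neuron libraries in the fit Sst passed (limma adjusted p = 0.000337). In that fit 5635 of 17079 genes were lower, against 3705 of 19612 in the fit of 18 libraries.

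The other peptide precursors among the 10 genes were nearly or wholly missing from neuron sEVs. Vip (ENSMUSG00000019772.6), which encodes vasoactive intestinal peptide, was listed at 0 in all 3 neuron sEV libraries, against 888, 1221 and 1118 in neuron cells (limma adjusted p = 5.5e-11). Vip was at 0 in every other library too, so it entered the fit through neuron cells alone. Its small adjusted p rests on a spread shared with groups wholly at 0. Penk (ENSMUSG00000045573.10), the precursor of enkephalins, had 0, 0 and 1.33 in neuron sEVs, against 542, 631 and 757 in neuron cells. Its difference was -8.91 ± 1.28 (limma adjusted p = 8.33e-05), which depends partly on the 1 added before taking logs. Neither gene had a neuron sEV library near its cell libraries. Tac1 (ENSMUSG00000061762.13), which encodes substance P and neurokinin A, had 0, 21.7 and 67.9 in neuron sEVs, against 476, 535 and 699 in neuron cells. It was lower by every library, with a difference of -5.60 ± 1.10 (limma adjusted p = 0.00121).

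The granin-family genes, whose products help to form dense-core vesicles and are themselves cut into peptides, had mean sEV levels from 1.14% of the cell mean for Scg2 to 30.8% for Vgf. Chga (ENSMUSG00000021194.7), chromogranin A, had 2412, 2038 and 1414 in neuron sEVs, against 7115, 7027 and 8672 in neuron cells. Its sEV mean was 25.7% of the cell mean and the difference was -1.99 ± 0.61 (limma adjusted p = 0.0234). Without neuron sEV replicate 2 or 3, or any 1 of the 3 neuron cell libraries, the adjusted p of Chga lay between 0.0515 and 0.0847, with the difference between -2.04 and -1.77. Chgb (ENSMUSG00000027350.9), chromogranin B, had 1026, 905 and 387 in neuron sEVs, against 15880, 28340 and 18330 in neuron cells. Its sEV mean was 3.71% of the cell mean, and the difference of -4.83 ± 1.84 missed the threshold over 18 libraries (limma adjusted p = 0.0615) and passed over the 6 neuron libraries (limma adjusted p = 3.01e-05). Scg2 (ENSMUSG00000050711.8), secretogranin II, had 62.2, 216 and 204 in neuron sEVs, against 10090, 18560 and 13570 in neuron cells. Although Scg2 and Chgb were both among the most abundant of these transcripts in the cells, Scg2 kept 1.14% of its cell mean in sEVs, with a difference of -6.60 ± 1.86 (limma adjusted p = 0.0138). Without neuron sEV replicate 1 the Scg2 difference was -6.02 (limma adjusted p = 0.054). Vgf (ENSMUSG00000037428.15), a granin-like gene induced by growth factors, was the exception in order, with 28.3, 0 and 102 in neuron sEVs against 92.3, 284 and 46.0 in neuron cells. These groups overlapped, and the difference of -2.90 ± 1.79 did not pass (limma adjusted p = 0.258).

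Pcsk1 (ENSMUSG00000021587.6), the convertase that makes the first cuts in many precursors, was listed at 0 in all 3 neuron sEV libraries. The neuron cell libraries held 1763, 3490 and 1935 (limma adjusted p = 2.28e-10). The spread behind this adjusted p was shared with astrocyte cells and all sEV groups, where Pcsk1 was wholly at 0. With Vip it was the most one-sided of the 10 genes in neurons. An alternative chosen after seeing the data left out the astrocyte and microglia sEV libraries that stood alone. In it Chgb (limma adjusted p = 0.00368) and Sst (limma adjusted p = 0.00221) were also called lower in neuron sEVs. The libraries left out held the lone values of both genes, so the spread behind these calls was smaller by choice.

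**Figure D1:**
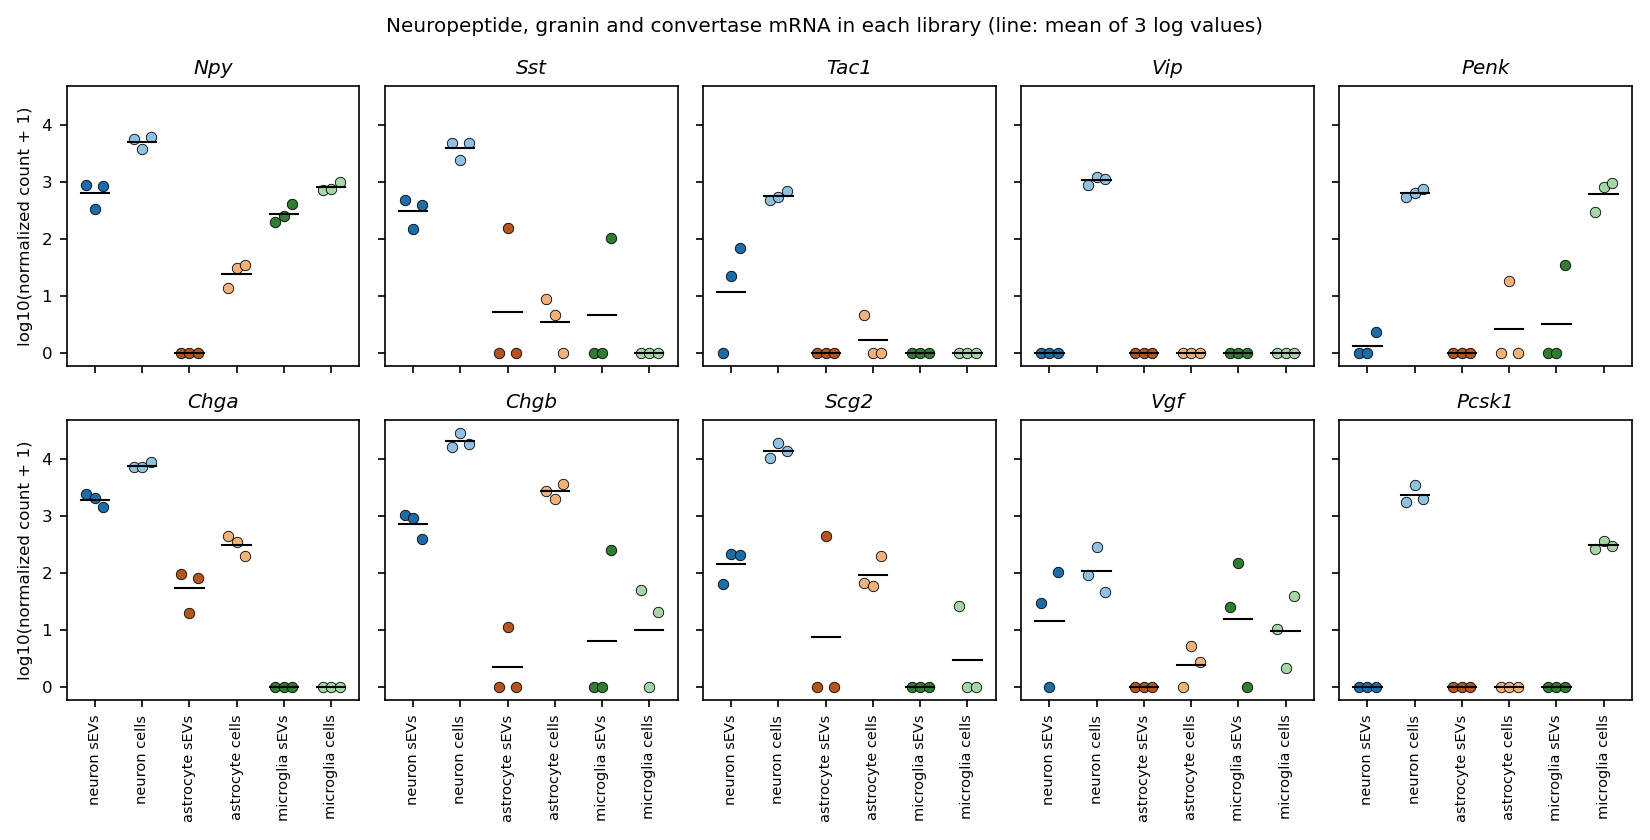
Normalized count of each of the 10 genes in each of the 18 libraries, as log10(normalized count + 1), with sEVs left of cells for neurons, astrocytes and microglia; points are libraries and lines the mean of the 3 log values. Vip and Pcsk1 sit at 0 in all 3 neuron sEV libraries, Npy and Chga stay closest to their neuron cell values among the abundant genes, and single astrocyte and microglia sEV libraries stand above 0 for Sst, Scg2, Chgb and Penk.

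Set per kilobase of the principal transcript in GENCODE, a rough scale for comparing genes, the order of the genes changed from cells to sEVs. The transcript lengths behind the deposited values are unknown and coverage along transcripts was not tested, so the order between genes is approximate. In neuron sEVs the order of mean level was Npy (1210 normalized counts per kb), Chga (1040), Sst (466), Chgb (282), Scg2 (63.9), Tac1 (24.3), Vgf (15.3) and Penk (0.305), with Vip and Pcsk1 at 0. In neuron cells it was Npy (8960 per kb), Chgb (7610), Scg2 (5600), Sst (5530) and Chga (4040), then Vip (703), Pcsk1 (475), Tac1 (464) and Penk (444), and last Vgf (49.6). Chga thus stood above Sst, Chgb and Scg2 in sEVs, without overlap, and had the lowest mean of these genes in cells. In sEVs the library ranges of Npy (596 to 1570) and Chga (751 to 1280) overlapped, and so did those of Sst (207 to 662) and Chgb (141 to 374), whereas Scg2 (24.7 to 85.8) lay wholly below Chgb. In cells the ranges of neighbours overlapped down to Chga (3730 to 4610), which lay wholly above Vip (580 to 798). Vip in turn overlapped with Pcsk1 (350 to 692), and Vgf lay below all others in every library. Transcript length ranged from 566 bases for Npy to 5040 for Pcsk1.

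Astrocyte cultures held mainly the chromogranins, and these too were lower in sEVs. The oligodendrocyte lineage markers summed to 92840 to 188800 in astrocyte sEVs, against 269600 to 480600 in astrocyte cells, and their part in the values was not tested. Of the 10 genes, 3 were lower in astrocyte sEVs and 0 higher (limma), where 18.6% of all genes were lower and 8% higher. With quantile normalization 2624 genes were higher and 2681 lower, against 1569 and 3646, and 0 and 2 of the 10. The same 3 genes had all sEV libraries below all cell libraries, as did 27.2% of all genes. Chgb had 0, 10.4 and 0 normalized counts in astrocyte sEVs, against 2716, 1948 and 3680 in astrocyte cells, a difference of -10.22 ± 1.84 (limma adjusted p = 0.000784). Chga had 94.9, 19.0 and 82.0 in astrocyte sEVs, against 441, 346 and 201 in astrocyte cells (-2.53 ± 0.61, limma adjusted p = 0.00665). With only the 6 astrocyte libraries the adjusted p of Chga was 0.0978. Chga therefore kept 19.8% of its cell mean in astrocyte sEVs and Chgb 0.124%. Npy was listed at 0 in all 3 astrocyte sEV libraries, against 12.8, 29.8 and 34.2 in astrocyte cells (limma adjusted p = 1.91e-05).

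Scg2 was above 0 in all 3 astrocyte cell libraries, and the remaining genes were near or at 0 in them. Scg2 had 0, 443 and 0 in astrocyte sEVs, against 66.6, 57.7 and 196 in astrocyte cells, and Sst had 0, 151 and 0 in astrocyte sEVs, against 7.80, 3.62 and 0 in astrocyte cells. The values above 0 of Scg2, Sst and Chgb in astrocyte sEVs all came from replicate 2. The difference of Scg2 over all 3 libraries was -3.59 ± 1.86 (limma adjusted p = 0.177), although its sEV mean was 138% of the cell mean; without replicate 2 the astrocyte sEVs were listed at 0. Vip and Pcsk1 were listed at 0 in every astrocyte library, and Tac1, Penk and Vgf reached at most 17.3 in any.

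Microglia cultures carried a different set, with Npy, Penk and Pcsk1 present in the cells. Of the 10 genes, 3 were lower in microglia sEVs and 0 higher (limma), where 21.2% of all genes were lower and 5.08% higher. With quantile normalization 2957 genes were higher and 2402 lower, against 996 and 4151, and 2 and 2 of the 10. The 2 higher were Chga and Vip, both listed at 0 in every microglia library. Quantile normalization gives genes at 0 a value that differs by library, so these calls show no rise in sEVs. For 3 genes all sEV libraries lay below all cell libraries, as for 24.9% of all genes. Pcsk1 was listed at 0 in all 3 microglia sEV libraries, against 260, 363 and 295 in microglia cells (limma adjusted p = 8.64e-09). Penk had 0, 0 and 33.2 in microglia sEVs, against 295, 795 and 964 in microglia cells (-7.55 ± 1.28, limma adjusted p = 0.00047). As in neurons, both transcripts were at or near 0 in sEVs while every cell library held them. Fibroblast and meningeal markers, 10 genes in all, summed to 367, 8819 and 15730 in the same microglia cells, and Penk was lowest in the library where that sum was lowest; their part in the Penk values was not tested.

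Npy was the one gene of the set with a steady level in microglia sEVs. It had 198, 250 and 410 normalized counts in microglia sEVs, against 709, 759 and 992 in microglia cells, and the groups did not overlap. Its sEV mean was 34.9% of the cell mean, and the difference of -1.57 ± 0.55 was close to the threshold (limma adjusted p = 0.0476). It missed the threshold in 17 of 26 alternatives, with Npy adjusted p up to 0.469. Without microglia sEV replicate 1 or 2 the Npy adjusted p was 0.118 and 0.082, and without any 1 microglia cell library it was between 0.0814 and 0.14. Of 16 inhibitory neuron markers, 1 to 3 were above 0 in a microglia sEV library, summing to 6151 to 10090, against 3 to 6 markers and sums of 6001 to 7594 in microglia cells; Maf, a transcription factor gene on that list, averaged 6920 in microglia cells. The defining markers Gad1 and Gad2 were listed at 0 in every microglia library, except Gad2 in 1 cell library. The part of neurons in the Npy values was not tested. The other genes were scattered. Chgb had 0, 0 and 256 in microglia sEVs, against 49.4, 0 and 19.5 in microglia cells, and Sst had 0, 0 and 100.7 in microglia sEVs and was listed at 0 in microglia cells. The single high values of Chgb, Sst and Penk were all in sEV replicate 3, the library with the highest neuron marker sum of its group. Vgf had 24.8, 147 and 0 in microglia sEVs, against 9.42, 1.14 and 38.9 in microglia cells, and the groups overlapped. Scg2 was listed at 0 in microglia sEVs and reached 25.6 in 1 microglia cell library, and Tac1, Vip and Chga were listed at 0 throughout.

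**Figure D2:**
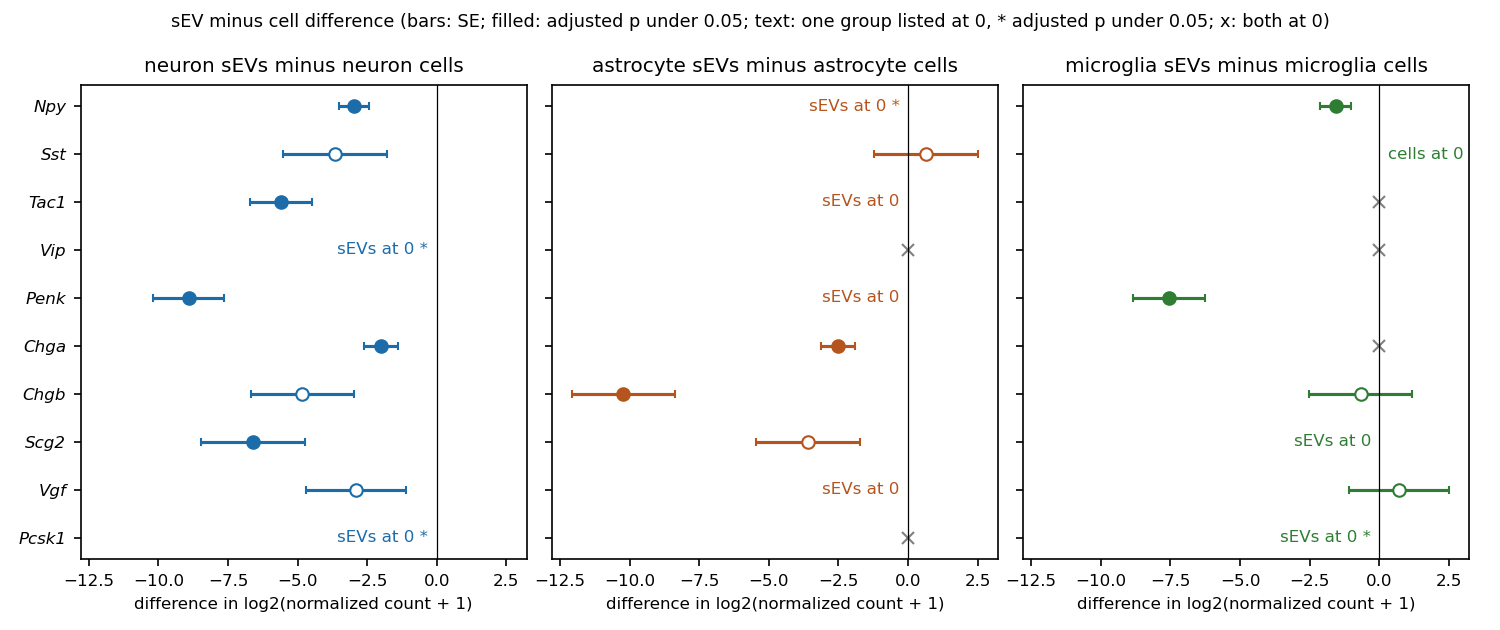
Difference in log2(normalized count + 1) between sEVs and cells for the 10 genes in neurons, astrocytes and microglia, with bars for the SE and filled points for an adjusted p under 0.05; text marks genes listed at 0 in 1 of the groups (a star for an adjusted p under 0.05) and a cross those at 0 in both. Among the filled points, Chgb in astrocytes (-10.22) and Penk in neurons (-8.91) lie lowest and Npy in microglia (-1.57) lies nearest to 0.

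Whether the gap between sEVs and cells differed between cell types was tested directly, gene by gene. Between neurons and astrocytes it differed for Vip (limma adjusted p = 6.36e-08), Pcsk1 (limma adjusted p = 1.78e-07) and Penk (limma adjusted p = 0.0254), all 3 more negative in neurons. Over all genes 2.63% were more positive and 2.47% more negative in neurons, and with quantile normalization 402 were more positive and 592 more negative, against 515 and 484. Vip and Pcsk1 were at 0 in every astrocyte library and Penk at 0 in all but 1, so these differences mostly restate the neuron values. The difference of effects was not called for Npy (limma adjusted p = 0.314), Chga (0.55 ± 0.87, limma adjusted p = 0.886), Chgb (5.40 ± 2.61, limma adjusted p = 0.329) or Scg2 (-3.00 ± 2.63, limma adjusted p = 0.692), which were above 0 in every cell library of both types.

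Between neurons and microglia it differed for Vip (limma adjusted p = 1.98e-08), Tac1 (limma adjusted p = 0.0193) and Pcsk1 (limma adjusted p = 0.00475), again more negative in neurons. Over all genes 12.9% were more positive and 7.82% more negative in neurons, or 2536 and 1533 genes, against 2351 and 2654 with quantile normalization and 1804 and 2307 with equal totals. Vip and Tac1 were at 0 in every microglia library, and Pcsk1 was at 0 in the sEVs of both types, so that its difference is the difference between the cells. For Penk, which was at 0 in 2 libraries of each sEV group, the difference of effects was -1.36 ± 1.82 (limma adjusted p = 0.639). Between astrocytes and microglia, Npy (limma adjusted p = 0.0161) and Chgb (-9.56 ± 2.61, limma adjusted p = 0.0239) were more negative in astrocytes, while Penk (limma adjusted p = 0.0363) and Pcsk1 (limma adjusted p = 8.51e-07) were more negative in microglia. The Npy call, with astrocyte sEVs at 0, was lost with a pseudocount of 10 (Npy adjusted p = 0.872) and with quantile normalization (0.409). Over all genes 8.77% were more positive and 4.53% more negative in astrocytes, or 1720 and 888 genes, against 1448 and 1331 with quantile normalization and 1365 and 1478 with equal totals. These comparisons share libraries with those of sEVs and cells above and are not further evidence for them.

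The cells themselves differed in which of these genes they held. In neuron cells 9 of the 10 genes were called higher than in astrocyte cells and 0 lower (limma). Over all genes 22.1% were higher and 10.4% lower. With quantile normalization 3155 genes were higher and 4192 lower, against 4065 and 1916, and 9 and 0 of the 10. Among the cell libraries, Sst, Tac1 and Vip reached 10 in those of neurons alone. They entered the fit only through that group, which fixed their direction here and against microglia cells. Chgb was the gene not called, at 15880, 28340 and 18330 in neuron cells against 2716, 1948 and 3680 in astrocyte cells (2.91 ± 1.21, limma adjusted p = 0.103). Of the called genes, Chga differed least (4.59 ± 0.37, limma adjusted p = 3.69e-05), and Scg2 differed by 7.21 ± 1.19 (limma adjusted p = 0.00199). Against microglia cells, 9 of 10 genes were again higher in neuron cells and 0 lower (limma), where 51.8% of all genes were higher and 19.9% lower. With quantile normalization 6043 genes were higher and 5763 lower, against 9530 and 3666, and 8 and 0 of the 10. Penk was the exception, at 643 ± 108 in neuron cells and 685 ± 348 in microglia cells (SD, n = 3 each), a difference of 0.07 ± 1.08 (limma adjusted p = 0.961). Npy was higher in neuron cells by 2.61 ± 0.38 (limma adjusted p = 0.000288). Vgf was higher by 3.48 ± 1.18 (limma adjusted p = 0.0255), a call lost without microglia cell replicate 2 or neuron cell replicate 1 or 2 (limma adjusted p 0.0528 to 0.0867).

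Some of the 10 genes differed between astrocyte and microglia cells, while Sst, Tac1, Vip and Vgf were not called in either direction. Chga, Chgb and Scg2 were higher in astrocyte cells, and Npy, Penk and Pcsk1 were lower in astrocyte cells than in microglia cells (limma, 3 higher and 3 lower of 10). Over all genes 43.6% were higher and 20.8% lower, or 8028 and 3822 genes, against 5898 and 4840 with quantile normalization (3 and 5 of the 10) and 10598 and 2595 with equal totals (3 and 3). The 5 lower with quantile normalization included Vip, which was listed at 0 in all astrocyte and microglia cell libraries. Chgb averaged 2780 ± 868 in astrocyte cells and 23.0 ± 24.9 in microglia cells (SD, n = 3 each), a difference of 8.06 ± 1.21 (limma adjusted p = 0.000412). Npy averaged 25.6 ± 11.3 in astrocyte cells and 820 ± 151 in microglia cells, a difference of -5.04 ± 0.38 (limma adjusted p = 6.48e-06). Penk showed a difference of -7.85 ± 1.08 (limma adjusted p = 0.000239).

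Among the sEVs, 6 of the 10 genes reached 10 in 3 or more of the 9 sEV libraries and were tested, namely Npy, Sst, Chga, Chgb, Scg2 and Vgf. Neuron sEVs were higher than astrocyte sEVs for 3 of them, Chga (5.14 ± 0.80, limma adjusted p = 0.00336), Chgb (8.31 ± 2.17, limma adjusted p = 0.0385) and Npy (limma adjusted p = 6.75e-05), and 0 were lower. Over all genes 11.8% were higher and 3.13% lower, or 1823 and 486 genes, against 1335 and 1146 with quantile normalization (3 and 0 of the 6). Neuron sEVs were higher than microglia sEVs for Chga (limma adjusted p = 1.23e-05), Chgb (6.81 ± 2.17, limma adjusted p = 0.0271) and Scg2 (limma adjusted p = 0.0229), against 45.3% of all genes higher and 13.6% lower. These were 7025 and 2106 genes, against 3866 and 3536 with quantile normalization (1 and 1 of the 6). The Chgb call against astrocyte sEVs was lost without any 1 neuron sEV library or without astrocyte sEV replicate 1 or 3 (limma adjusted p 0.103 to 0.169). Against microglia sEVs it was lost without any 1 neuron sEV library or microglia sEV replicate 1 or 2 (0.0538 to 0.0811). Scg2 lost its call without neuron sEV replicate 2 or 3 or microglia sEV replicate 2 or 3 (limma adjusted p 0.0503 to 0.0683). Npy did not pass between neuron and microglia sEVs (684 ± 302 and 286 ± 110, SD, n = 3 each; 1.20 ± 0.70, limma adjusted p = 0.17). In astrocyte sEVs, Chga was higher (limma adjusted p = 0.000648) and Npy lower (limma adjusted p = 4.34e-05) than in microglia sEVs, against 26.6% of all genes higher and 12.9% lower. These were 4131 and 1997 genes, against 3068 and 2720 with quantile normalization (0 and 2 of the 6).

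Genes that act with this set were counted in the same fits. Of 47 other peptide precursors 32 were tested, and in neuron sEVs 17 were lower than in neuron cells and 0 higher (limma), with a median difference of -2.72 against -0.47 for all genes, of which 18.9% were lower. Cartpt, the precursor of the appetite-suppressing CART peptides, averaged 37.8 ± 12.6 in neuron sEVs and 1430 ± 630 in neuron cells (-5.16 ± 0.54, limma adjusted p = 3.6e-06). Nppc, which encodes C-type natriuretic peptide, showed a difference of -8.54 ± 0.90 (limma adjusted p = 4.06e-06). Calcb and Trh, the precursor of thyrotropin-releasing hormone, were listed at 0 in all neuron sEV libraries, against means of 64.7 and 87.0 in neuron cells. Of 31 peptide receptors tested 15 were lower and 0 higher, with a median of -2.67. In the fit of sEV libraries 18 of these precursors and 12 of these receptors passed the filter, against 32 and 31 here. Over all genes these numbers were 15514 and 19612. Genes that passed through cell libraries alone could hardly be called higher in sEVs, so the filter fixed part of the counts of these lists. The neuropeptide Y receptor Npy2r was listed at 0 in neuron sEVs, against a mean of 393 in neuron cells, as were the gastrin-releasing peptide receptor Grpr and the neurokinin receptor Tacr3.

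The enzymes and chaperones of the pathway were split. Of 17 processing enzymes 7 were lower in neuron sEVs and 0 higher, with a median of -1.79, where 18.9% of all genes were lower. Ctsl, a protease that also cuts precursors, averaged 444 ± 204 in neuron sEVs and 15000 ± 608 in neuron cells (-5.20 ± 0.42, limma adjusted p = 2.24e-07). Pam, the amidating enzyme, averaged 79.7 ± 34.6 in neuron sEVs and 1630 ± 325 in neuron cells (-4.43 ± 0.78, limma adjusted p = 0.000501). Cpd, a carboxypeptidase, differed by -1.79 ± 0.33 and the aminopeptidase Rnpep by -2.94 ± 0.35 in the same direction. Of 22 dense-core vesicle genes 4 were lower and 0 higher, with a median of -1.20, a share close to that of all genes. The 4 were Syt10, a calcium sensor (-4.29 ± 0.48, limma adjusted p = 7.83e-06), Cadps, which primes vesicles (-3.15 ± 0.89, limma adjusted p = 0.0136), the monoamine transporter Slc18a2 (-2.27 ± 0.61, limma adjusted p = 0.0107), and Dbh, listed at 0 in neuron sEVs. Of 15 peptide-degrading peptidases 5 were lower and 0 higher, with a median of -1.28.

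Of the 3 other granins and convertase chaperones 0 passed in neurons in either direction, with a median of -3.63. Scg3, which tethers granins to the vesicle membrane, had 1307, 1181 and 1044 in neuron sEVs, against 13670, 14650 and 15300 in neuron cells (limma adjusted p = 0.0566). Scg5, the chaperone of the convertase Pcsk2, had 1927, 1154 and 1218 in neuron sEVs, against 20610, 27340 and 23430 in neuron cells (limma adjusted p = 0.102). Pcsk1n, which encodes the inhibitor of the Pcsk1 convertase, had 7674, 9899 and 5265 in neuron sEVs, against 8034, 7483 and 6469 in neuron cells. The groups overlapped for Pcsk1n alone, with a difference of 0.01 ± 1.13 (limma adjusted p = 1). Every neuron sEV library thus held at least 5265 normalized counts of Pcsk1n and was listed at 0 for Pcsk1.

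**Figure D3:**
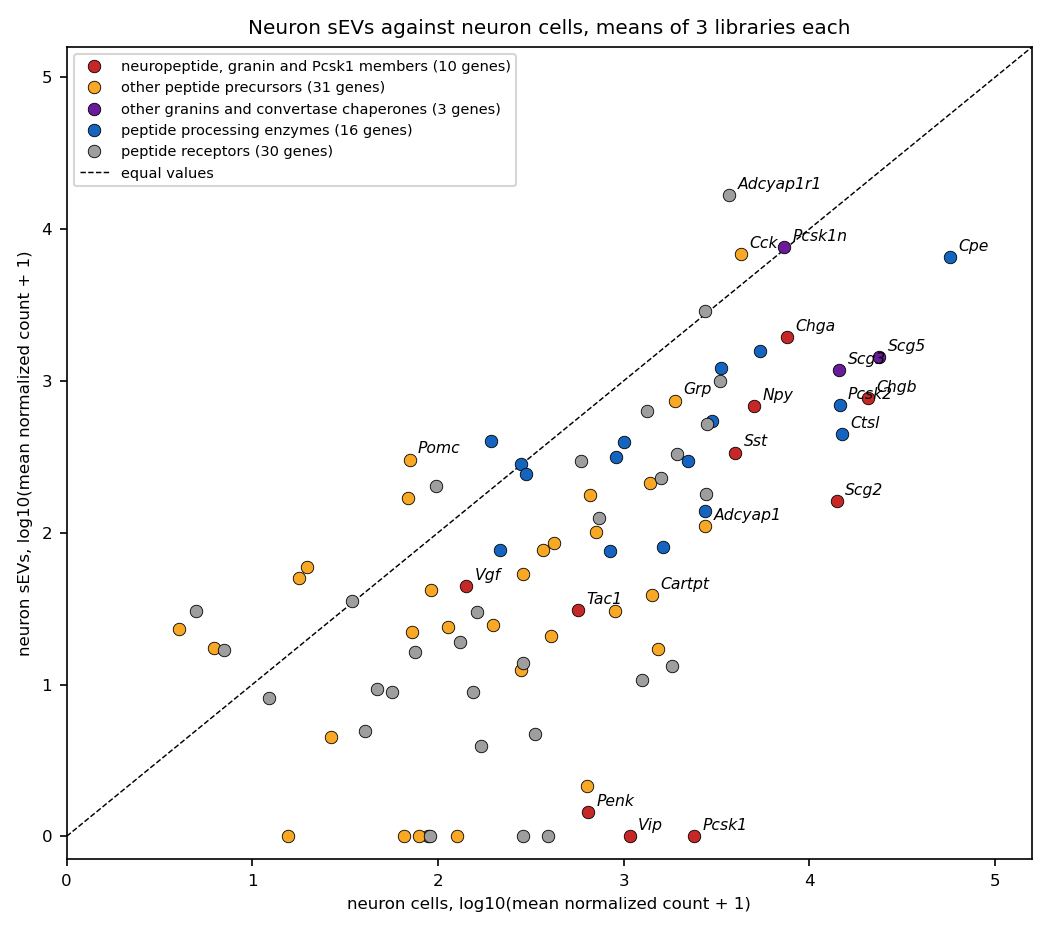
Mean normalized count in neuron sEVs (vertical axis) against neuron cells (horizontal axis), both as log10(mean + 1), for the 10 genes and the related genes whose mean reached 10 in either group; each point is a gene, a mean of 3 libraries, and the dashed line marks equal values. Most points lie below the line, Vip, Pcsk1 and Penk lie at or near 0 on the vertical axis, and Pcsk1n (7610 in sEVs, 7330 in cells) lies on it.

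In astrocytes 11 of 17 processing enzymes were lower in sEVs and 0 higher (limma), with a median of -3.20, where 18.6% of all genes were lower and the median of all genes was -0.60. Of 32 other precursors 8 were lower and 0 higher, with a median of -0.89, and of 31 peptide receptors 6 were lower and 0 higher, with a median of 0; the share of receptors is near that of all genes. Agt, which encodes angiotensinogen, averaged 301 in astrocyte sEVs and 11700 in astrocyte cells (-5.67 ± 1.11, limma adjusted p = 0.00153). Pcsk1n (-3.92 ± 1.13, limma adjusted p = 0.0187) and Scg3 (-4.10 ± 1.36, limma adjusted p = 0.0364) were lower in astrocyte sEVs. In microglia 6 of 32 other precursors were lower and 1 higher, where 21.2% of all genes were lower and 5.08% higher, so that the share of lower precursors was not above that of all genes. Of 17 processing enzymes 7 were lower and 0 higher. The precursor higher in microglia sEVs was Cck, cholecystokinin, at 0, 9.21 and 169 in microglia sEVs and listed at 0 in microglia cells (limma adjusted p = 0.0446). The general neuron genes Snap25 (0, 505 and 434 in microglia sEVs, against 0, 1.05 and 0 in microglia cells) and Elavl3 were higher in the same comparison, and their part in the Cck values was not tested.

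Among other lists that bear on neurons, set against 18.9% of all genes lower and 11.1% higher, 5 of 16 inhibitory neuron markers were lower in neuron sEVs and 1 was higher, with a median of -2.41, and 3 of 12 excitatory neuron markers were lower and 1 higher, with a median of -0.39. Gad1, the main enzyme of GABA synthesis, averaged 501 ± 168 in neuron sEVs and 6150 ± 1130 in neuron cells (-3.65 ± 1.20, limma adjusted p = 0.0323). Slc17a7, a glutamate transporter, averaged 160 ± 75.7 in neuron sEVs and 2540 ± 926 in neuron cells (-4.02 ± 0.76, limma adjusted p = 0.000842). Rbfox3, a general neuron gene, averaged 3350 ± 1280 in neuron sEVs and 4310 ± 2090 in neuron cells (-0.35 ± 1.41, limma adjusted p = 0.909). Of 12 neuron markers 1 was lower and 0 higher, with a median of -1.06 against -0.47 for all genes. These 12 summed to 135500 to 172100 in neuron sEVs and 274500 to 342400 in neuron cells. Of 16 activity-regulated genes 4 were lower in neuron sEVs and 0 higher, with a median of -0.87.

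The genes whose values ran most like those of each member over the 18 libraries were found by Pearson correlation of log2(normalized count + 1) over 15371 named genes, as a description in which the large gap between groups sets most of r. For Npy these were Rnasek (r = 0.936) and Trpc4, for Sst Smim18 (0.976) and Gabra5, for Tac1 Htr1a (0.988) and Nell1, and for Vip Chrm2 and Slco4c1 (both 0.9997). For Chga they were Mapk8ip2 (0.984) and Myo16, for Chgb Cyp46a1 (0.971) and Mfsd2a, and for Scg2 Vstm2a (0.988) and Clstn3. Penk and Pcsk1 shared Olfm4 among their nearest (0.932 with Penk, 0.953 with Pcsk1), and Vgf had the lowest best match, Timm10 (0.799).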

How the data were processed

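The authors deposited one table whose signal values are normalized counts, for 54307 genes in 18 libraries. Salmon 1.8.0, GRCm39 and DESeq2 are the tools and build named in the submitters' processing notes. Per the labels' protocols, poly(A)-primed cDNA from a low-input kit was amplified by PCR and tagmented, which leaves strand unmarked. The values are not whole reads, so depth per gene is unknown, no interval on counts is given and no count model was run.

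Differences were computed on log2(normalized count + 1) with limma 3.58.1 in R 4.3.3 (eBayes with trend). A gene entered a fit if 3 or more of its libraries reached 10. One fit of 18 libraries gave sEVs against cells and the differences of these effects; fits of 9 cell or 9 sEV libraries gave the pairs of cell types. Calls had a Benjamini-Hochberg adjusted p under 0.05. Log2 values of genes with libraries at 0 depend on the added 1, and groups wholly at 0 are given without a fold in the results, though the settings compared below include such values. The fit was tested on simulated data with normal noise around the overall mean of each gene. That simulation did not reproduce groups wholly at 0 or lone high libraries, so it does not cover such genes. No 2 of the 153 pairs of libraries were identical. The 10 genes and the gene lists were chosen with earlier results of these data known. All 10 genes are named, with up to 4 called genes per list by smallest p, the 2 nearest genes to each by correlation, and markers named in the design; others are said to be chosen later.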

Additional observations from a re-analysis of the deposited data

Results flagged for a closer look

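The gap between sEVs and cells differed between cell types, by a limma test of the difference of effects, for these genes. Between neurons and astrocytes they were Vip (adjusted p = 6.36e-08), Penk (adjusted p = 0.0254) and Pcsk1 (adjusted p = 1.78e-07). Between neurons and microglia they were Tac1 (adjusted p = 0.0193), Vip (adjusted p = 1.98e-08) and Pcsk1 (adjusted p = 0.00475). Between astrocytes and microglia they were Npy (adjusted p = 0.0161), Penk (adjusted p = 0.0363), Chgb (adjusted p = 0.0239) and Pcsk1 (adjusted p = 8.51e-07). Vip was listed at 0 in all astrocyte and microglia libraries, Pcsk1 in all astrocyte libraries and Tac1 in all microglia libraries, so these differences restate the neuron or microglia values. The Penk call between neurons and astrocytes was lost without any 1 neuron cell library, neuron sEV replicate 1 or 2, or astrocyte cell replicate 1 or 3 (adjusted p 0.0533 to 0.071). The Penk call between astrocytes and microglia was lost in 11 of 25 alternatives, with an adjusted p of up to 0.092. The Npy call, with astrocyte sEVs at 0, was lost with a pseudocount of 10 (Npy adjusted p = 0.872) and with quantile normalization (0.409). The Chgb call was lost without astrocyte cell replicate 3 (adjusted p = 0.0529) or microglia cell replicate 2 (0.0654).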

How the results depend on the processing

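A gene listed at 0 may be present below what a low-input library detects, and the depth behind these values is unknown. In neurons Pcsk1, Npy, Penk, Tac1 and, wherever it was tested, Vip were called lower in sEVs under each alternative. The number of the 10 genes lower in neuron sEVs was 9 with a pseudocount of 10, 9 with quantile normalization and 8 with equal totals, against 7. Over all genes 4532 of 19612, 3439 of 19612 and 4424 of 19749 were lower in these settings, against 3705 of 19612. Quantile normalization moved the median of all genes in that comparison to 0.07 and equal totals to -0.77, against -0.47. Except where stated, the cause of a change was not tested.

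For the difference of effects between neurons and microglia, 6 of the 10 genes were called with a pseudocount of 10 and 8 with quantile normalization, against 3. All of these were more negative in neurons. Over all 19612 genes 1936 and 2654 were more negative in these settings, against 1533. With all 18 libraries in the fit, 10 genes were tested between sEVs, against 6 in the fit of sEV libraries. Of these 10, 5 were called between neuron and astrocyte sEVs and 5 between neuron and microglia sEVs, against 3 of 6 each. The same fit called 4176 genes between neuron and astrocyte sEVs, against 2309, and 3148 between neuron and astrocyte cells, against 5981. With only the 6 neuron libraries 9383 genes were called between neuron sEVs and neuron cells, against 5890.

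Deviations from the group means were compared between same-numbered sEV and cell libraries of a type. Their correlations ran from -0.05 to 0.07, and 0 of 9 pairs exceeded 0.1. This cannot decide whether same-numbered libraries came from the same culture, because noise between libraries could hide a shared deviation. A replicate block gave 566 genes called for the difference of effects between neurons and astrocytes, against 999. It gave 6 of the 10 genes lower in neuron sEVs, with the Chga call lost (limma, Chga adjusted p = 0.0742), where 3269 of all 19612 genes were lower. It also lost the call of Npy for the difference of effects between astrocytes and microglia (Npy adjusted p = 0.0504).

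Directions that turned were all of differences that had not passed. With a pseudocount of 10, Chgb in microglia sEVs minus cells became 0.20 and the Npy difference of effects between neurons and astrocytes -1.18. Quantile normalization, which by construction gives genes at 0 a value that differs by library, turned more. The differences of effects between neurons and astrocytes became -0.38 for Chga and -1.54 for Npy. In astrocyte sEVs minus cells, Penk became 0.21, Tac1 0.65 and Vgf 0.23, and in microglia sEVs minus cells Chgb became 1.09 and Scg2 0.47. Npy became -0.65 between neuron and microglia sEVs, Sst -2.01 between astrocyte and microglia sEVs, Penk -0.96 between neuron and microglia cells, and Tac1 -0.73 between astrocyte and microglia cells.

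Leaving out 1 library at a time gave 2 to 5 calls between neuron and astrocyte sEVs and 1 to 4 between neuron and microglia sEVs, of 6 genes tested. Between neuron and microglia cells it gave 5 to 9 calls, of 10 genes tested or 7 without a neuron cell library. Genes present in neurons alone no longer passed the filter without such a library. For the differences of effects leaving out 1 library gave 1 to 4 calls between neurons and astrocytes. It gave 2 to 6 between neurons and microglia and 2 to 4 between astrocytes and microglia. Over all genes it gave 452 to 2557 calls between neuron and astrocyte sEVs, lowest without neuron sEV replicate 1, and 567 to 1407 for the difference of effects between neurons and astrocytes, lowest without neuron cell replicate 1. Turned directions came with ranges of -0.17 to 0.96 for Chga, -3.02 to 0.33 for Vgf (effects, neurons minus astrocytes), -2.21 to 0.34 for Penk (effects, neurons minus microglia) and -4.00 to 0.63 for Sst (effects, astrocytes minus microglia). In microglia sEVs minus cells they were -3.34 to 0.67 for Chgb and -0.92 to 2.68 for Vgf, and in astrocyte sEVs minus cells -1.78 to 1.84 for Sst. Without both lone sEV libraries the values were -0.17 for Chga, 0.34 for Penk and -1.78 for Sst. Between astrocyte and microglia sEVs they were -2.83 to 1.17 for Chgb and -2.22 to 2.42 for Sst, between neuron and microglia sEVs -2.10 to 1.81 for Vgf, and between neuron and microglia cells -0.46 to 0.40 for Penk.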

Other observations

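A few genes near the pathway stood in neuron sEVs at or above their level in neuron cells. They were chosen after their values were seen. Cck, the precursor of cholecystokinin, had 7553, 7454 and 5613 normalized counts in neuron sEVs, against 3880, 5427 and 3625 in neuron cells. Every sEV library was above every cell library, but the difference of 0.68 ± 1.24 did not pass (limma adjusted p = 0.75). Cck was listed at 0 in astrocyte sEVs. Pomc, the precursor of melanocortins and beta-endorphin, had 409, 190 and 307 in neuron sEVs, against 46.0, 83.1 and 79.2 in neuron cells (2.08 ± 1.22, limma adjusted p = 0.232).

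Adcyap1r1, the receptor for the peptide PACAP, had 13260, 17590 and 19630 in neuron sEVs, against 4097, 3355 and 3665 in neuron cells (2.17 ± 1.23, limma adjusted p = 0.215). In astrocytes Adcyap1r1 had 17580, 31350 and 23520 in sEVs, against 10670, 11480 and 9906 in cells (1.14 ± 1.23, limma adjusted p = 0.56). The sEV libraries lay above the cell libraries in both cell types. The part of astrocytes in the neuron sEV values of Adcyap1r1 was not tested. Adcyap1, the gene of its ligand, had 120, 112 and 97.4 in neuron sEVs, against 866, 5346 and 2069 in neuron cells (-4.26 ± 1.24, limma adjusted p = 0.0165).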
